A study of Mus musculus with 2 samples.

Results

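The TgS1 line of mouse Schwann cells, the glia of peripheral nerve, holds a transgene for human transthyretin with the V30M change, and its RNA was sequenced after long-term growth in DMEM, a common basal medium, or in SCM, a medium whose name the labels do not spell out. Both groups share the genotype (TTR V30M tg) and the cell line, and each medium had 1 library. The labels give neither the promoter of the transgene nor the passage of the cells nor whether the line is 1 clone. The genes described here are 10 axon-glia adhesion molecules, taken by name from the 55323 rows of the deposited gene table: the 4 genes of the L1 family (Chl1, L1cam, Nrcam, Nfasc), the contactin gene Cntn1, the neural cell adhesion gene Ncam2 and the 4 CADM genes (Cadm1 to Cadm4). No difference between the media was checked in replicates, so p-values are not given. Levels are FPKM, which are scaled by gene length, and each ratio is followed by its 95% exact interval (Clopper-Pearson, from read counts), which covers counting error only and treats amplified reads as independent.

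L1 family proteins are membrane proteins with immunoglobulin and fibronectin domains that bind each other, contactins and integrins outside the cell and ankyrin and ezrin-type linkers inside it. In peripheral nerve they join axons to Schwann cells and build the node of Ranvier and the paranode beside it. CADM proteins, also called nectin-like or SynCAM proteins, line the internode, where Schwann cell Cadm4 faces axonal Cadm1, Cadm2 and Cadm3, and they bind protein 4.1 and membrane guanylate kinases through their tails.

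The gene rows together held 29085791 reads in DMEM and 36666676 in SCM, as recovered from FPKM and gene length. Of 10 Schwann cell markers 9 had at least 1 FPKM in 1 or both libraries, with a summed level of 4166 FPKM in DMEM and 3989 in SCM, and Sox10, which specifies the lineage, gave 126 FPKM in DMEM against 113 in SCM. Egr2, the transcription factor of myelination, stayed under 1 FPKM in both. Because L1 and CADM genes are also neuronal, 9 neuron markers were read beside them. Of these, 1 was above the filter, the tubulin gene Tubb3, at 60.2 FPKM in DMEM against 45.0 in SCM, and Rbfox3, Syt1, Elavl4 and Gad1 had 0 reads in both libraries. The summed neuron marker level was 60.5 FPKM in DMEM and 45.3 in SCM, and its part in the results was not tested. Among markers of other cells, the 1 tested of 5 fibroblast markers, Col1a2, was called higher in SCM (268 reads in DMEM, 1433 in SCM, 4.24-fold), with a summed list level of 0.913 FPKM in DMEM and 3.21 in SCM and 0 reads for Col1a1 and Lum in both. Of 4 perineurial markers 2 were tested and Itgb4, which Schwann cells also express, was called higher (192 reads in DMEM, 1092 in SCM, 4.51-fold), with a summed level of 4.06 and 7.35 FPKM and 0 reads for Cldn1. Col1a2 and Itgb4 moved in the same direction as Chl1, and their part in its difference was not tested. The other markers of these lists did not all follow. Of the fibroblast list, Pdgfra had 50 reads in DMEM and 15 in SCM, and Dcn 0 and 6. Of the perineurial list, Slc2a1 had 316 reads in DMEM and 388 in SCM, a ratio of 0.974, and Prdm1 had 4 and 17 reads. In bulk RNA, fewer cells that express a gene and less RNA per cell cannot be told apart.

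Of the 10 adhesion genes 7 were expressed above 1 FPKM in 1 or both libraries, and 3 had 0 reads in both. Cadm4 and L1cam were the most abundant, Cadm1 came next, and Chl1 moved from among the lowest expressed members in DMEM to the fourth highest in SCM. A row was called higher or lower when log2((SCM FPKM + 1) / (DMEM FPKM + 1)) reached 2-fold. By that rule 1 of the 7 was higher in SCM (Chl1), 0 were lower and 6 lay within 2-fold. Over all 12334 rows with at least 1 FPKM, 3.1% were higher and 2.8% lower, and over the protein-coding rows 2.48% were higher and 1.44% lower. The log2 ratio lay above 0 for 5 of the 7 and below 0 for 2 (Nrcam and Cadm2), against 45.8% of all tested rows above 0. The median of the 7 log2 ratios was 0.25, and that of all tested rows -0.03. All 7 counting intervals excluded a ratio of 1, as did 65.5% of those of all tested rows.

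**Figure D1:**
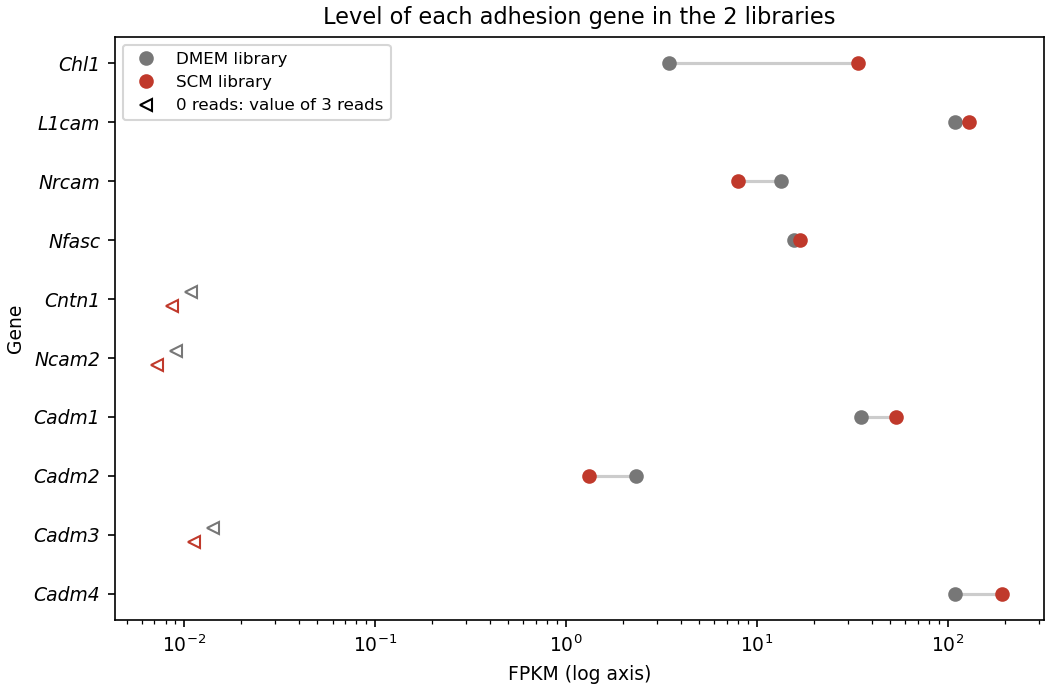
FPKM of each of the 10 genes (log axis) in the DMEM library (grey) and the SCM library (red). Open triangles mark the level that 3 reads would give for the 3 genes with 0 reads. Chl1 has the widest gap, from 3.48 to 34.1 FPKM.

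The sequences around the annotated starts are shown for 3 genes that stand for the range of results: Chl1, the member called higher, Cadm4, the most abundant member, and Cadm3, which had 0 reads. Each is the RefSeq GRCm38.p6 sequence from 250 bases before the start to 50 bases from it, with the start as RefSeq annotates it, read 5′ to 3′ on the strand of the gene. They lie at chr6:103510626-103510925 on the plus strand (Chl1), chr7:24481773-24482072 on the plus strand (Cadm4) and chr1:173367646-173367945 on the minus strand (Cadm3). The RefSeq start of Chl1 lies 290 bases downstream of the gene start in GENCODE M21, so its window lies inside the gene as GENCODE draws it, while the starts of Cadm4 and Cadm3 are the same in both. Capitals mark matches, on either strand, to any of 5 searched motifs, which are spelled out after the sequences and do not overlap each other in these windows.
Chl1 promoter: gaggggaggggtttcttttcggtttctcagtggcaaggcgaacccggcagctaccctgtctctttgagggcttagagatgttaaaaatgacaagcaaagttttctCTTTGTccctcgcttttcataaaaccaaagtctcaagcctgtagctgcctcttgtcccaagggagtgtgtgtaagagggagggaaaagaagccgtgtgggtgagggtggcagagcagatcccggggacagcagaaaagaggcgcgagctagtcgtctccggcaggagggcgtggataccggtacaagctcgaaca
Cadm4 promoter: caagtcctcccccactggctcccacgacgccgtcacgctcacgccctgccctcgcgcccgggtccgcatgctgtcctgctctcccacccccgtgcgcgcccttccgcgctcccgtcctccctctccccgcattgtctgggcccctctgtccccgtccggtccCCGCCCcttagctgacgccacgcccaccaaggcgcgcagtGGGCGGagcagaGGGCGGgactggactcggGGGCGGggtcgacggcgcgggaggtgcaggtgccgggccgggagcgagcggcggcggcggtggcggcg
Cadm3 promoter: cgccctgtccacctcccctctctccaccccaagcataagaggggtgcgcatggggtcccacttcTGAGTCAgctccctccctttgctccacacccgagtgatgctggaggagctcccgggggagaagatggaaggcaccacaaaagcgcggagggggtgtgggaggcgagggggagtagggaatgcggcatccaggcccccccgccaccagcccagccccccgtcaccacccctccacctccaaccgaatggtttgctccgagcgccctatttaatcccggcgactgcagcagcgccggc

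The motif ACAAAG, a core of sites for SOX factors, had 1 match in the Chl1 window, read as CTTTGT on the strand of the gene and beginning 145 bases before the start. It was found in 18.7% of all 32851 RefSeq promoters of the same length. The motif GGGCGG, bound by factors of the SP family, had 4 matches in the Cadm4 window, which begin 88, 48, 36 and 18 bases before the start. It was found in 35.7% of all promoters and not in the Chl1 window. The motif TGACTCA, bound by AP-1, had 1 match in the Cadm3 window, read as TGAGTCA on the strand of the gene and beginning 186 bases before the start. It was found in 5.20% of all promoters. The E-box motif CACGTG occurred in 7.15% of all promoters, and in none of these 3 windows. The core promoter motif TATAAA occurred in 13.6% of all promoters, and likewise in none of the 3. The share of G and C was 53.7% for Chl1, 77.0% for Cadm4 and 66.7% for Cadm3, against a median of 52.7%. The observed over expected number of CpG pairs was 0.628, 0.910 and 0.517, against a median of 0.384. The window of Ncam2, which had 0 reads, had 75.7% G and C and a CpG ratio of 0.958. In all, 9 of the 10 genes matched the table, through 13 windows. These matches describe letters and are not binding sites.

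Chl1 encodes the close homolog of L1, which binds neuropilin and integrins and is shed by the protease BACE1. It is listed as ENSMUSG00000030077 and lies at chr6:103510586-103750211 on the plus strand in the GENCODE M21 annotation of GRCm38. It measured 3.48 FPKM in DMEM (1246 reads) against 34.1 FPKM in SCM (15383 reads). The SCM library was 9.79-fold higher (9.24 to 10.4), with a log2 ratio of 2.97 that ranked 11 among the 12334 tested rows. Among all rows Chl1 moved from rank 7827 by FPKM in DMEM to rank 1126 in SCM.

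L1cam, the founding member, supports axon-Schwann cell contact in unmyelinated fibres. It measured 109 FPKM in DMEM (23339 reads) against 130 FPKM in SCM (34972 reads), 1.19-fold higher (1.17 to 1.21). The gene lies at chrX:73853778-73896105 on the minus strand. Although both L1cam and Chl1 were above DMEM in SCM, the gap between their levels narrowed: L1cam stood 31.3-fold above Chl1 in DMEM and 3.80-fold in SCM. Nfasc encodes neurofascin, whose glial form anchors the paranode and whose neuronal form sits at the node. It measured 15.6 FPKM in DMEM (6437 reads) against 16.9 FPKM in SCM (8763 reads), a ratio of 1.08 (1.05 to 1.12). The table gives gene totals, so glial and neuronal forms of neurofascin, or splice forms of L1cam, were not separated. Nfasc lies at chr1:132564690-132741797 on the minus strand.

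Nrcam encodes a nodal member of the family that Schwann cells place on their microvilli and shed into the nodal gap. It went the other way, from 13.4 FPKM in DMEM (5188 reads) to 7.97 FPKM in SCM (3904 reads), 1.68-fold lower (1.61 to 1.75). Its log2 ratio of -0.68 stood at percentile 5.79 of all tested rows, still within the 2-fold limit. Nrcam lies at chr12:44328885-44601964 on the plus strand. The make-up of the family therefore differed between the libraries. L1cam gave 77.1% of the summed L1 family FPKM in DMEM and 68.8% in SCM, Chl1 2.46% and 18.1%, Nfasc 11% and 8.95%, and Nrcam 9.42% and 4.22%. Nrcam stood 3.83-fold above Chl1 in DMEM, and Chl1 stood 4.28-fold above Nrcam in SCM. The summed level was 142 FPKM in DMEM and 189 in SCM.

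**Figure D2:**
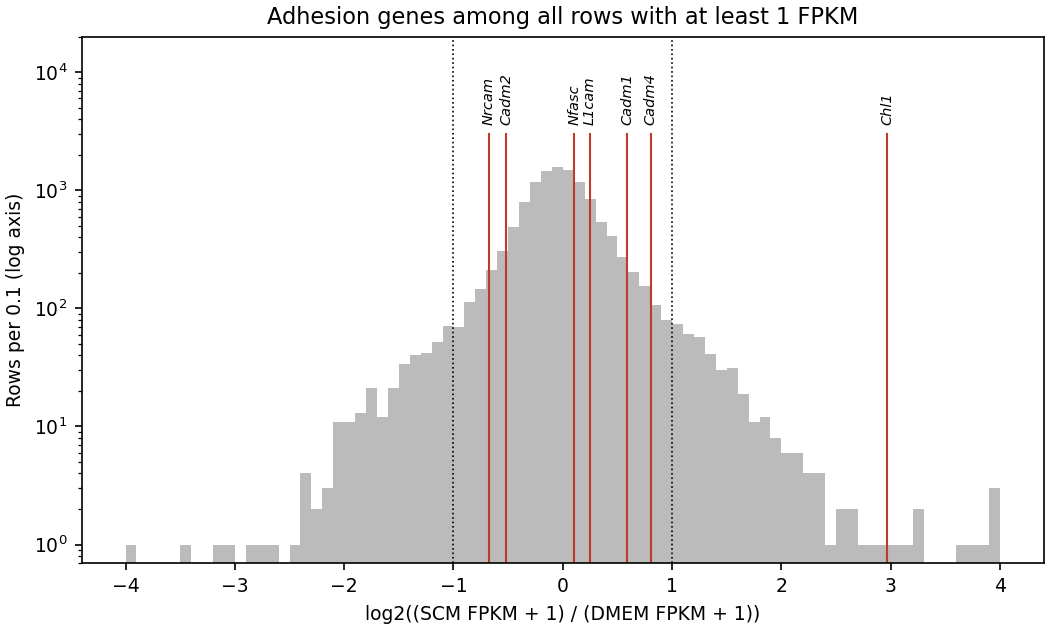
Histogram of the log2 ratio of SCM over DMEM for the 12334 rows with at least 1 FPKM (rows per 0.1, log axis, with values beyond 4 in the outermost bars). Red lines mark the 7 expressed adhesion genes, their height has no meaning, and dotted lines mark 2-fold. Chl1 at 2.97 lies in the sparse upper tail and the other 6 lie between -0.68 and 0.80.

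Among the CADM genes, the glial member and Cadm1 were higher in SCM and Cadm2 was lower, all within the 2-fold limit. Cadm4, the main CADM protein of the Schwann cell internode, lies at chr7:24482023-24504539 on the plus strand. It measured 109 FPKM in DMEM (6878 reads) against 192 FPKM in SCM (15198 reads), 1.75-fold higher (1.70 to 1.80), and its log2 ratio of 0.80 stood at percentile 95.5. Cadm1, at chr9:47530173-47857637 on the plus strand, is known from axons and from many epithelia. It measured 35.3 FPKM in DMEM (12111 reads) against 53.6 FPKM in SCM (23178 reads), 1.52-fold higher (1.49 to 1.55). The order of Cadm4 over Cadm1 held in both libraries, 3.1-fold in DMEM and 3.58-fold in SCM. In DMEM the levels of Cadm4 and L1cam were nearly equal, with a ratio of 1.0, and in SCM Cadm4 stood 1.48-fold above L1cam.

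Cadm2, an axonal member, was the least abundant of the expressed genes. It lies at chr16:66655421-67620908 on the minus strand and measured 2.32 FPKM in DMEM (662 reads) against 1.32 FPKM in SCM (475 reads), 1.76-fold lower (1.56 to 1.98). On the log2(FPKM + 1) scale this is -0.52, because the pseudocount understates the ratio of a low gene. Cadm1 exceeded Cadm2 15.2-fold in DMEM and 40.6-fold in SCM. The summed CADM level was 147 FPKM in DMEM and 247 in SCM, of which Cadm4 gave 74.4% and 77.7%.

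Cadm3, another axonal member, Cntn1, the contactin that joins the axonal side of the paranode, and Ncam2 had 0 reads in both libraries. A count of 0 would allow up to 3 reads, which is 0.0142 FPKM for Cadm3 in DMEM and 0.0113 in SCM. The limits were 0.0109 and 0.00867 FPKM for Cntn1 and 0.00910 and 0.00722 for Ncam2. Levels of these genes below those limits could not be detected at this depth, and no ratio is given. Cadm3 shares 361 of its 7248 exon bases with the row of Ackr1, which also had 0 reads.

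Rows of the table that lie inside the introns of these genes gave a readout that the choice of genes did not use, though from the same 2 libraries. They were looked up after the gene values had been seen. There were 12 such rows on the same strand as the host and without a base in its exons. Inside Chl1 lie 4 unclassified transcripts and 1 small nuclear RNA row, which together had 36 reads in DMEM and 337 in SCM, 7.43-fold higher (5.26 to 10.8). Most of these reads came from Gm44439, with 27 and 226 reads, 6.64-fold higher (4.44 to 10.3). Gm44441 had 2 reads in DMEM and 69 in SCM, Gm44436 2 and 16, Gm44440 5 and 23 and the small RNA Gm24784 0 and 3. All 5 had more reads in SCM, the deeper library, but the interval of Gm24784, from 0.328 upward, included a ratio of 1. The interval of the sum of the 5 rows overlapped that of Chl1. The 2 rows inside Nrcam had 42 reads in DMEM against 24 in SCM, 2.21-fold lower (1.31 to 3.81). This sum rests on Gm48182, with 35 and 15 reads, whereas Gm48181 had 7 and 9 reads, a ratio of 1.02 (0.338 to 3.22).

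Cadm1 and its inner row went opposite ways. Gm47198, an unclassified transcript in a Cadm1 intron, had 93 reads in DMEM against 65 in SCM, 1.80-fold lower (1.30 to 2.52), while Cadm1 was 1.52-fold higher. The 2 rows inside Cadm2, both processed pseudogenes, had 14 reads in DMEM against 1 in SCM, 17.6-fold lower (2.69 to 746), and rest on too few reads to set beside the ratio of Cadm2. The 2 same-strand rows inside Ncam2 had 0 reads, as did Ncam2. No source used here gives the strand setting of the read counting, and whether reads of a host and an inner or overlapping row were shared was not tested. In exons, L1cam shared 100 bases with the row of Arhgap4, and Cadm2 256 bases with 1700010K23Rik, which had 2 reads in each library. Cadm4 and Cntn1 overlapped no other row.

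**Figure D3:**
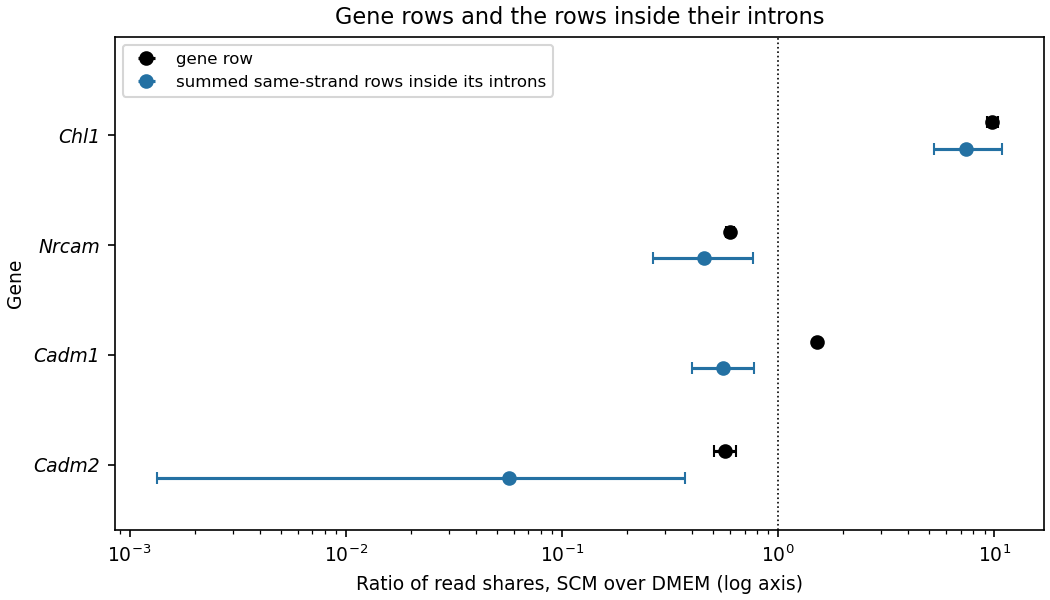
Ratio of SCM over DMEM (log axis, with 95% counting intervals) for 4 genes (black) and for the summed same-strand rows inside their introns (blue). The dotted line marks a ratio of 1. Gene and summed inner rows lie on the same side of 1 for Chl1 and Nrcam (where 1 of 2 inner rows carries the sum). They lie on opposite sides for Cadm1. The Cadm2 inner rows had 14 reads in DMEM and 1 in SCM, too few to set beside the ratio of Cadm2.

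Genes that act with these adhesion molecules were read from 4 lists. Of 21 binding partners outside the cell, 12 were tested, 2 were higher in SCM, 0 were lower and 10 lay within 2-fold, beside 3.1% higher and 2.8% lower over all tested rows. Their median log2 ratio was -0.01, beside -0.03 over all tested rows, with 6 above 0 and 6 below, and turned to 0.03 in TPM and 0.02 with median-ratio scaling. Ptprz1, a receptor phosphatase whose ectodomain binds contactin and the L1 family, measured 0.338 FPKM in DMEM (140 reads) against 6.57 FPKM in SCM (3431 reads), 19.4-fold higher (16.4 to 23.2). Ncam1, the neural cell adhesion molecule, stood at 61.3 FPKM in DMEM against 200.0 in SCM. Nrp1 and Nrp2, the neuropilins that pair with Chl1 and L1cam in semaphorin receptors, had 53.8 and 44.7 FPKM in DMEM and 26.9 and 23.1 in SCM. Their log2 ratios of -0.97 and -0.93 lay just inside the limit. Gldn, named after its values were seen, encodes gliomedin, the Schwann cell ligand of Nrcam and neurofascin at the node. It stood at 40.5 FPKM in DMEM against 24.7 in SCM, 1.64-fold lower (1.57 to 1.70), beside 1.68-fold for Nrcam.

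Among the membrane scaffolds, 26 of 27 listed symbols had a row (Mpp6 and Pals2 name the same gene), 20 were tested, 0 were higher, 1 was lower (2.8% of all tested rows were) and 19 lay within 2-fold. Their median log2 ratio was 0.00, with -0.06 in TPM and 0.03 with median-ratio scaling. Ank3 encodes ankyrin-G, which ties L1 family tails to the spectrin skeleton. It measured 27.4 FPKM in DMEM (27786 reads) against 6.55 FPKM in SCM (8369 reads), 4.19-fold lower (4.08 to 4.29). The related Ank2 had 2.05 and 2.35 FPKM. Ezr, which encodes the membrane linker ezrin of Schwann cell microvilli, stood at 36.1 FPKM in DMEM against 72.6 in SCM, with a log2 ratio of 0.99 just short of the limit. In plain FPKM Ezr was 2.01-fold higher (1.93 to 2.09), so the pseudocount of 1 FPKM keeps it from being called. Mpp2 and Dlg4, both membrane guanylate kinases, had 1.32 and 20.8 FPKM in DMEM and 0.301 and 12.7 in SCM. In plain FPKM Mpp2 was 4.40-fold lower (3.23 to 6.09), as large a ratio as that of Ank3, and it counts as within 2-fold only because the pseudocount of 1 FPKM shrinks the ratio of a low gene. Epb41l2 and Epb41l3 encode proteins 4.1G and 4.1B, which bind CADM tails, and were named with Ank2 after their values were seen. Epb41l2 stood at 17.9 FPKM in DMEM against 21.0 in SCM, and Epb41l3 had 1.30 and 0.659 FPKM.

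Of 9 proteases that cut such adhesion molecules or process those that do, 7 were tested, 1 was higher and 0 were lower, beside 3.1% and 2.8% of all tested rows. Their median log2 ratio was 0.40, with 6 of 7 above 0, against a median of -0.03 and 45.8% above 0 over all tested rows. It was 0.10 when only rows with at least 5 FPKM were kept. Pcsk6, a proprotein convertase, measured 0.457 FPKM in DMEM (69 reads) against 2.31 FPKM in SCM (439 reads), 5.05-fold higher (3.91 to 6.60). Bace1, the sheddase of Chl1, stood at 7.03 FPKM in DMEM against 11.5 in SCM, 1.63-fold higher (1.52 to 1.74). The sheddase gene Adam17 had 8.89 and 12 FPKM, and Psen2, a subunit of gamma-secretase, had 3.52 and 4.98 FPKM.

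Of 28 other adhesion molecules with immunoglobulin domains, 14 were tested, 1 was higher and 0 were lower, beside 3.1% and 2.8% of all tested rows. The median log2 ratio was 0.24 and 11 of 14 lay above 0, where 45.8% of all tested rows did. Mpzl1, a cell surface immunoglobulin protein gene, measured 1.56 FPKM in DMEM (161 reads) against 7.16 FPKM in SCM (932 reads), 4.59-fold higher (3.88 to 5.46). Ntm, which encodes neurotrimin, stood at 25.2 FPKM in DMEM against 42.0 in SCM, and Hepacam, a glial adhesion gene, had 1.34 and 2.63. Pvr, a nectin-like receptor, stood at 8.99 FPKM in DMEM against 4.78 in SCM.

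**Figure D4:**
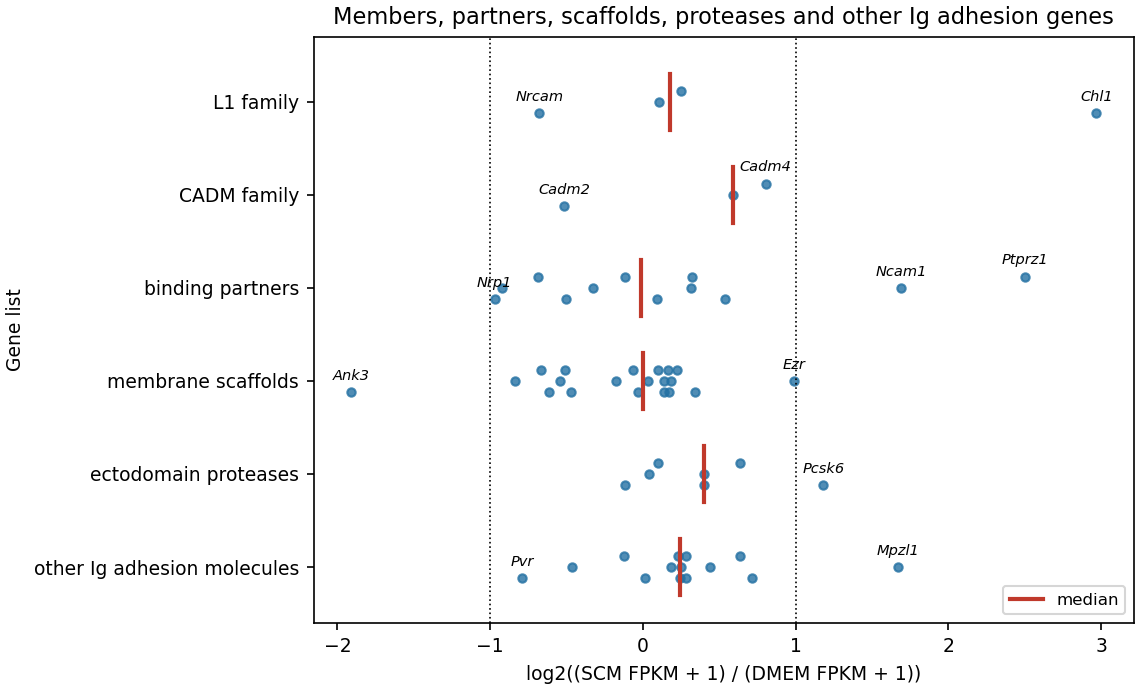
Log2 ratio of SCM over DMEM for every tested gene (blue points, spread vertically only for visibility) of the L1 and CADM families and of the 4 lists, with the list median in red and 2-fold limits dotted. Chl1, Ptprz1, Ncam1, Pcsk6 and Mpzl1 lie above the upper limit and Ank3 below the lower one, and medians of the binding partners and scaffolds lie near 0, where scaling moves their sign.

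Among the 3 protein-coding genes with a log2 ratio nearest to that of Chl1, over the 2 libraries and with at least 5 FPKM in the higher one, were Col4a1 and Serpina3m. Their log2 ratios of 2.83 and 3.16 differed from that of Chl1 by 0.14 and 0.19. Col4a1, a type IV collagen chain, had 5.48 and 44.9 FPKM in DMEM and SCM, and Serpina3m, a serine protease inhibitor, 0.0400 and 8.27 FPKM. Likeness over 2 libraries is likeness in a single ratio.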

How the data were processed

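The authors deposited FPKM values for both libraries, made from stranded total RNA libraries per the labels' protocols. Per the submitters' processing notes, STAR 2.7.9a and featureCounts 2.0.1 were used with cutadapt 3.1, Trimmomatic 0.39 and Trim Galore, in roles and an order not given there, and the builds GRCm38.p6 and mm10 are named. Columns were matched to titles by the medium; their names carry the numbers 1 (DMEM) and 3 (SCM), and any further libraries are not analysed here. The products of FPKM and gene length in kilobases added up to 1000000 per library and gave whole reads in 100% of rows (within 0.01 read). No count model was fitted, because each medium had 1 library.

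Of 52046 gene identifiers matched to GENCODE M21, 1457 had the same position in the table and 50022 the same span at another position. Most positions in the table thus did not match GRCm38, although the processing notes name GRCm38.p6 and mm10. Gene positions given here are those of GENCODE M21 on GRCm38, matched by identifier. Inner rows were found in the table's own coordinates. The pseudocount was 1 FPKM, the filter 1 FPKM in 1 or both libraries and the limit 2-fold. The floor for a count of 0 was 3 reads. Calculations used Python 3.11.15, pandas 2.3.3 and scipy 1.17.1, and were tested on simulated reads.

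The members, lists and rules were chosen with earlier results of these data known. Named genes were all members, up to 4 genes of each of the 4 lists with the largest absolute log2 ratio, and the 3 genes nearest to Chl1. Some genes taken by these rules are not reported here. Oligodendrocyte, endothelial and macrophage markers had 2, 0 and 1 of 5 genes above the filter, with 0 called higher or lower. Alternatives changed the pseudocount, filter, unit, scaling and limit.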

Additional observations from a re-analysis of the deposited data

How the results depend on the processing

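The count of adhesion genes called stayed at 1 higher and 0 lower with pseudocounts of 0.1 and 3 FPKM, with no filter, with a filter of 5 FPKM, in TPM and with scaling by the median ratio. At a limit of 1.5-fold, 3 were higher and 1 lower, beside 7.90% and 7.52% of all tested rows. The log2 ratio of each of the 7 genes kept its sign in the 4 settings tried, and that of Chl1 ran from 2.52 to 3.26. In TPM each of the 7 moved outside its counting interval, such as Nfasc from 0.104 to 0.047 and Nrcam from -0.68 to -0.79. The counting intervals therefore do not cover the choice of unit. The list medians moved outside the range from the median lower to the median upper counting limit of their genes in 6 cases. For binding partners they were 0.032 in TPM, 0.023 with median-ratio scaling and -0.11 with at least 5 FPKM, for scaffolds -0.062 in TPM and 0.035 with median-ratio scaling, and for proteases 0.10 with at least 5 FPKM, a filter that leaves fewer genes. Median-ratio scaling divides every SCM value by 0.976, which raises the log2 ratio of every row with SCM reads. The cause of the shifts in TPM was not tested. Counts over all rows moved from 382 higher and 345 lower to 681 and 625 with a pseudocount of 0.1 FPKM, 148 and 131 with 3 FPKM, 974 and 928 at 1.5-fold and 1011 and 1145 in TPM, where the filter admits 16603 rows. No paired analysis was possible because each medium had 1 library, and no replicate could be left out. At these depths 3 reads are 0.103 FPKM in DMEM and 0.0818 in SCM for a gene of 1 kb.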
